A study of Homo sapiens with 4 samples.

Results

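The genes described here are 10 tRNA methyltransferase genes and partner subunits, read in RNA-seq libraries of MV4-11, a human AML cell line, with and without ANP32B knockdown. They were chosen by symbol, namely TRMT1, TRMT2A, TRMT2B, TRMT5, TRMT6, TRMT61A, TRMT10C, NSUN2, METTL1 and WDR4. All 10 were found among the 18885 genes listed, and all 10 passed the filter on low values, which left 16937 genes for the tests. The control group (NC) and the knockdown group (sh-ANP32B) had 2 libraries each. The GEO record of the NC cells gives the shRNA as none and calls them untreated, whereas the paper describes an sh-NC control. Whether these cells carried a hairpin is therefore not settled, and an effect of transduction and puromycin selection cannot be told apart from that of ANP32B loss. The knockdown columns are marked S3, and the paper numbers its hairpins, so the knockdown rests on a single hairpin as far as the column names show. The labels do not say whether libraries of a group came from separate cultures, and a general statement on repeats in the methods does not describe these libraries, so p-values measure the spread between these libraries, which may be technical.

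tRNA methyltransferases add methyl groups to bases of the tRNA body and of the anticodon loop, with S-adenosylmethionine as the donor. Methylation of the body stabilizes the folded tRNA, and methylation beside the anticodon keeps the ribosome in the reading frame. Several of these enzymes work as pairs of a catalytic and a binding subunit, and a few act in mitochondria. Growing cells use large amounts of tRNA, and METTL1 and NSUN2 are known for raised expression in tumors. The libraries hold mRNA of the enzymes, and neither tRNA nor its methylation was measured.

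Values are given as TPM (reads per base of a gene, set to a common total in every library), which allows levels of different genes to be set side by side. Read numbers cannot be recovered from TPM, so sequencing depth is unknown and intervals for counting are not given. ANP32B itself had 358 and 364 TPM in NC and 54.1 and 49.3 TPM in sh-ANP32B, which left 14.3% of the NC mean. Mitochondrial genes held 15.4% to 15.9% of the TPM in NC and 17.4% to 17.6% in sh-ANP32B. Of 10 markers of leukaemic and myeloid cells, 8 were listed, CD33 and SPI1 among them, and MPO and CD34 were not among the rows used here. The summed TPM of these 8 was 1165 to 1182 in NC and 1655 to 1667 in sh-ANP32B. By the rule set out below, 5 of 8 were called higher, against 26.0% of all genes tested. FLT3, KIT and CEBPA were not called. No marker of T cells, erythroid cells, epithelial cells or fibroblasts was among these rows, and 3 of 5 B cell markers were, none above 7.31 TPM in any library. The summed TPM of the 10 of 12 monocyte markers listed was 738 to 752 in NC and 6304 to 6353 in sh-ANP32B. Most of both sums was LYZ, with 471 and 463 TPM in NC and 5308 and 5260 TPM in sh-ANP32B. Of the 10 monocyte markers, 9 were called higher, against 26.0% of all genes tested, and CSF1R was not called. CD14 and VCAN were the monocyte markers not among these rows. The summed TPM of 10 markers of cycling cells was 2155 to 2185 in NC and 1016 to 1030 in sh-ANP32B. All 10 were called lower, against 19.7% of all genes tested. These lists moved with the knockdown, and their part in the results below was not tested. In bulk RNA, fewer cells of a kind and less RNA per cell cannot be told apart.

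Promoter sequences are shown for the members whose promoters held a searched motif, so that the letters can be seen beside the values of these genes. CACGTG is the E-box bound by MYC and other factors of its class. RefSeq promoter windows on GRCh38.p14, from 250 bases before to 50 bases after the start, were at hand for 7 of the 10 members. CACGTG, which reads the same on both strands, was in 2 of the 7, TRMT6 and TRMT61A, which encode the subunits of a single enzyme. Of 27305 promoter windows of the same length, 7.43% held it. With the RefSeq start itself counted, it began at base 5 of TRMT6 and at base 33 of TRMT61A. GENCODE places the start of TRMT6 further upstream, at 5950558. Some bases given below as before the RefSeq start of TRMT6 therefore lie within the gene as GENCODE places it. CACGTG is in capitals in the following stretches, both read along the gene, from chr20:5950512-5950541 on the minus strand and chr14:103529216-103529245 on the plus strand.
TRMT6: agcggcgtgcaaCACGTGggggcggtgccg
TRMT61A: gcgtcgcggaggCACGTGtggagccccggc

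The letters CCGGAAG, a sequence that ETS factors can bind, were searched on both strands (as CCGGAAG or CTTCCGG). Shorter or other forms of ETS sites were not searched. This choice was made after these sequences had been seen and is not independent of them. The letters were in 3 of the 7 windows, TRMT10C, TRMT6 and TRMT61A, and in 10.7% of all windows. In TRMT6 matches on both strands overlapped each other, which gives the longer run of capitals. TRMT10C held a match on each strand, beginning 48 and 28 bases before the start. The 250 bases before each start are given with the matches in capitals, from chr20:5950534-5950783 on the minus strand for TRMT6, chr14:103528946-103529195 on the plus strand for TRMT61A and chr3:101561618-101561867 on the plus strand for TRMT10C. These matches describe letters and do not show binding.
TRMT6: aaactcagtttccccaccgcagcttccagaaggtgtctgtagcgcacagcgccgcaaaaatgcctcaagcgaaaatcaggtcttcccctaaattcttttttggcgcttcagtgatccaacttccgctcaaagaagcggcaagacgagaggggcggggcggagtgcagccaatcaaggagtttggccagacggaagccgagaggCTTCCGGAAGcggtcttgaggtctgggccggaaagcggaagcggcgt
TRMT61A: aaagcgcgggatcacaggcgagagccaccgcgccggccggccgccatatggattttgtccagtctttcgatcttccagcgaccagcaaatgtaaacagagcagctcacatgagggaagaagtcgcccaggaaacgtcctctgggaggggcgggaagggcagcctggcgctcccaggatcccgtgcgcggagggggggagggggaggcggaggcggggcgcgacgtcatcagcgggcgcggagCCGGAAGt
TRMT10C: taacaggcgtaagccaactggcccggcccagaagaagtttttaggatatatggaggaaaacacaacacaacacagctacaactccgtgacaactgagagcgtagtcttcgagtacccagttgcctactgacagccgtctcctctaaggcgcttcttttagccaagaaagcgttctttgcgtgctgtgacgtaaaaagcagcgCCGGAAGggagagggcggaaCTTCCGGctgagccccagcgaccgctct

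Levels of the 10 genes spanned more than an order of magnitude. NSUN2 was the highest, with a mean of 134 ± 4.67 TPM (SD, n = 2) in NC, and TRMT5 was the lowest, with 7.81 ± 0.299 TPM (SD, n = 2). The order in NC ran NSUN2, WDR4, TRMT1, TRMT2A, TRMT10C, METTL1, TRMT6, TRMT2B, TRMT61A and TRMT5. METTL1 and TRMT6 were neighbours whose ranges overlapped, as were TRMT2B and TRMT61A. In sh-ANP32B, TRMT2A stood second in place of WDR4, and METTL1 stood below TRMT6. Ranges there overlapped between WDR4 and TRMT1, and between METTL1 and TRMT2B.

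**Figure D1:**
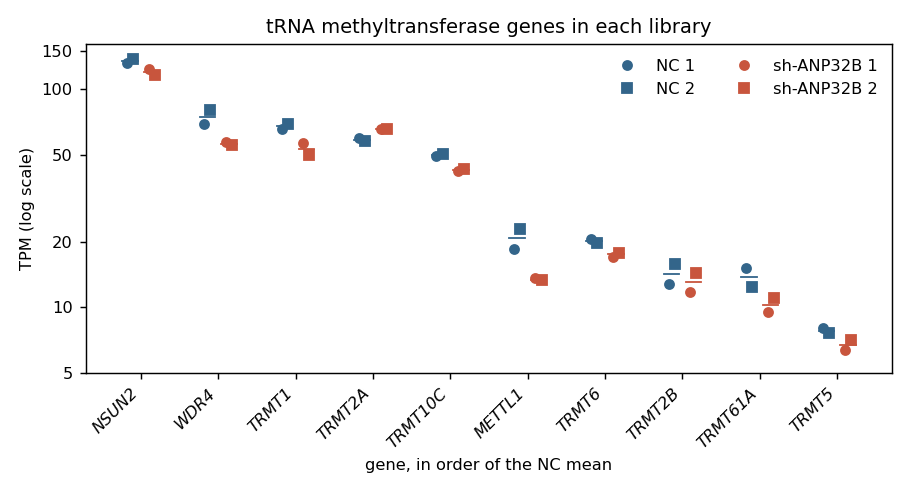
TPM of each gene (log scale) in the 2 NC libraries (blue) and the 2 sh-ANP32B libraries (red), with short lines at the group means and genes in order of the NC mean. The red points lie below the blue points for 8 genes, above them for TRMT2A, and among them for TRMT2B.

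To see how these genes moved with ANP32B knockdown, sh-ANP32B was compared with NC by limma on log2(TPM + 1). The difference between the group means on that scale, NC taken from sh-ANP32B, is written log2FC, with SE for its standard error, and it understates changes of genes at low levels. Genes were called where p, adjusted by Benjamini-Hochberg over the genes tested, was under 0.05. METTL1, WDR4, TRMT1, TRMT10C and NSUN2 fell, TRMT2A rose, and TRMT61A, TRMT6, TRMT5 and TRMT2B were not called. The median log2FC of the 10 genes was -0.21, against 0.08 over all genes tested. Thus 5 of 10 members were called lower, against 19.7% of all genes tested, and 1 of 10 was called higher, against 26.0% (in either direction, 6 of 10 against 45.7%). The log2FC was below 0 in 9 of 10 members and in 43.7% of all genes tested. In 8 members both sh-ANP32B libraries lay below both NC libraries, which held for 32.1% of all genes tested. In TRMT2A both lay above, which held for 42.5% of all genes tested, and the groups lay apart in either direction for 9 members and 74.7% of all genes tested. With the limits used in the study (unadjusted p under 0.05, log2FC past 0.5 up or down), METTL1 was the member called, lower. These limits called 10.8% of all genes tested lower, 20.2% higher and 31.0% in all. The summed TPM of the 10 genes was 450.2 and 474 in NC and 403 and 394 in sh-ANP32B.

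**Figure D2:**
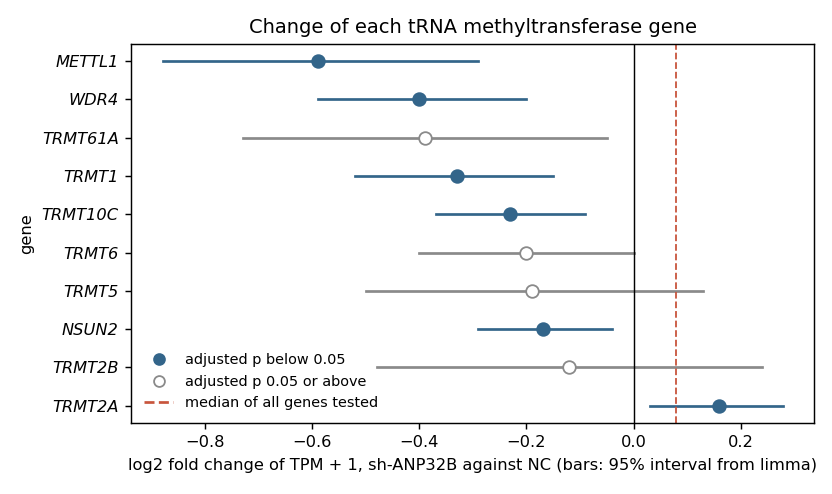
The log2FC of TPM + 1, sh-ANP32B against NC, for each gene, with the 95% interval from limma. Filled points passed an adjusted p of 0.05, and the dashed line is the median of all genes tested (0.08). METTL1 lies lowest at -0.59, and TRMT2A lies to the right of 0 at 0.16.

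METTL1 and WDR4 form the enzyme that places methylguanosine in the variable loop, with METTL1 as the catalytic subunit and WDR4 as its scaffold. METTL1 (ENSG00000037897, on hg38, as all positions of genes here, chromosome 12, from 57768471 to 57772119, minus strand) had 18.6 and 22.9 TPM in NC and 13.6 and 13.3 TPM in sh-ANP32B. The NC libraries differed from each other more than the knockdown libraries did, and the groups did not overlap. The log2FC was -0.59 (SE 0.12, 95% interval -0.88 to -0.29, limma adjusted p = 0.0115). WDR4 (ENSG00000160193, chromosome 21, from 42843094 to 42879568, minus strand) had 69.3 and 80.0 TPM in NC and 57.0 and 55.5 TPM in sh-ANP32B. Its log2FC was -0.40 (SE 0.078, limma adjusted p = 0.0101). Both genes were called lower in all 12 alternative settings of the fit, with log2FC from -0.73 to -0.44 for METTL1 and from -0.50 to -0.30 for WDR4. WDR4 was not called where a log2FC past 0.5 was also required, whether p was adjusted or not.

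The log2 ratio of METTL1 to WDR4 TPM was -1.90 and -1.80 in NC and -2.07 and -2.06 in sh-ANP32B. The difference of -0.22 lay outside the spread within the groups. An exact permutation test over the 4 libraries gave p = 0.333 (two-sided), the smallest p that 2 against 2 allows. METTL1 shares 107 exonic bases with CYP27B1 on the same strand and 114 with EEF1AKMT3 on the opposite strand. CYP27B1, which encodes a vitamin D hydroxylase, had 14.3 and 15.2 TPM in NC and 14.6 and 11.8 TPM in sh-ANP32B (limma adjusted p = 0.364). EEF1AKMT3, a lysine methyltransferase gene, fell with a log2FC of -0.44 (limma adjusted p = 0.0160). The counting is not stated to use strand, so reads in shared exons cannot be assigned to either gene with certainty. The annotation also names 1 pseudogene of METTL1 and 2 of WDR4.

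TRMT6 and TRMT61A form the enzyme that places methyladenosine in the T loop. TRMT61A carries the catalytic site and TRMT6 helps to bind the tRNA. TRMT61A (ENSG00000166166, chromosome 14, from 103529196 to 103537073, plus strand) had 15.2 and 12.4 TPM in NC and 9.57 and 11.0 TPM in sh-ANP32B. The groups did not overlap, but the gap between them was smaller than the spread within NC. Its log2FC of -0.39 (SE 0.14, 95% interval -0.73 to -0.05) had a limma adjusted p = 0.0645, above the threshold. TRMT61A was called lower with median-of-ratios scaling (limma adjusted p = 0.0399), with quantile normalization (limma adjusted p = 0.0370) and without NC replicate 2 (limma adjusted p = 0.0485).

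TRMT6 (ENSG00000089195, chromosome 20, from 5937228 to 5950558, minus strand) had 20.6 and 19.8 TPM in NC and 17.1 and 17.8 TPM in sh-ANP32B. Both knockdown libraries lay below both NC libraries. Its log2FC was -0.20 (SE 0.080, 95% interval -0.40 to 0.00, limma adjusted p = 0.0936), and it was called with median-of-ratios scaling (limma adjusted p = 0.0335). The log2 ratio of TRMT6 to TRMT61A was 0.44 and 0.67 in NC and 0.84 and 0.69 in sh-ANP32B. The difference of 0.21 was smaller than the spread within NC (exact permutation test, two-sided p = 0.333, the smallest possible). These are the genes whose promoter windows held CACGTG. Members without a window were not searched, and a link between the motif and the change of a gene was not tested.

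TRMT1, which forms dimethylguanosine in cytosolic and mitochondrial tRNA, fell. TRMT1 (ENSG00000104907, chromosome 19, from 13104902 to 13117567, minus strand) had 65.4 and 69.3 TPM in NC and 56.6 and 50.1 TPM in sh-ANP32B. The knockdown libraries both lay below NC but differed from each other by more than the NC libraries did. Its log2FC was -0.33 (SE 0.075, limma adjusted p = 0.0163). The call was lost without NC replicate 2 (limma adjusted p = 0.0692) and with eBayes without a trend (limma adjusted p = 0.0636). TRMT1 shares 74 exonic bases with NACC1 on the opposite strand, a transcriptional corepressor gene that rose with a log2FC of 0.23 (limma adjusted p = 0.0356). The annotation names 1 pseudogene of TRMT1.

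NSUN2, which forms methylcytosine in the variable loop of many tRNAs, fell least among the members called lower. NSUN2 (ENSG00000037474, chromosome 5, from 6599239 to 6633291, minus strand) had 131 and 138 TPM in NC and 123 and 116 TPM in sh-ANP32B. The groups did not overlap, and the gap between them was about as wide as the spread within each. Its log2FC was -0.17 (SE 0.051, 95% interval -0.29 to -0.04, limma adjusted p = 0.0452). Blocking on the replicate number, limma gave adjusted p = 0.0803, and the call was also lost without NC replicate 1, NC replicate 2 or sh-ANP32B replicate 2 (adjusted p from 0.0666 to 0.176 in limma). It was lost too with TPM rescaled without mitochondrial genes (limma adjusted p = 0.0837) and with eBayes without a trend (limma adjusted p = 0.162). NSUN2 shares 112 exonic bases with LINC01018, a noncoding gene not used here.

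TRMT10C acts in mitochondria, where with HSD17B10 it methylates a purine of the tRNA body and with PRORP it belongs to mitochondrial RNase P. TRMT10C (ENSG00000174173, chromosome 3, from 101561868 to 101566446, plus strand) had 49.5 and 50.6 TPM in NC and 42.0 and 43.0 TPM in sh-ANP32B. Replicates were close, and the groups were well apart. TRMT10C fell with a log2FC of -0.23 (SE 0.055, limma adjusted p = 0.0194). Leaving out any of the 4 libraries took the call away, as did eBayes without a trend (adjusted p from 0.0509 to 0.0844 in limma for the 4 libraries), while the log2FC stayed between -0.25 and -0.21. Of its partners, 1 was called higher, as were 26.0% of all genes tested, and the other was not called. HSD17B10, also a dehydrogenase of isoleucine breakdown, rose from 99.5 and 84.6 TPM in NC to 122 and 109.6 TPM in sh-ANP32B (log2FC 0.33, limma adjusted p = 0.0338). With median-of-ratios scaling, or with eBayes without a trend, no tRNA processing gene was called higher (0), HSD17B10 included. PRORP, the nuclease subunit, had 12.7 and 11.6 TPM in NC and 14.7 and 6.89 TPM in sh-ANP32B, with the NC values between the knockdown values (limma adjusted p = 0.574).

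TRMT5 methylates the guanosine beside the anticodon of cytosolic and mitochondrial tRNA. TRMT5 (ENSG00000126814, chromosome 14, from 60971441 to 60981170, minus strand) had 8.02 and 7.60 TPM in NC and 6.41 and 7.07 TPM in sh-ANP32B. The groups did not overlap, but at this low level the log2FC of -0.19 had a 95% interval from -0.50 to 0.13 (limma adjusted p = 0.272). TRMT5 shares 57 exonic bases with SLC38A6, a transporter gene on the opposite strand, which rose with a log2FC of 0.75 (limma adjusted p = 0.00478). It also shares 195 exonic bases with a processed pseudogene of the same strand (ENSG00000258656) and 109 with RNU6-398P on the opposite strand, a small nuclear RNA copy, neither used here.

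TRMT2A forms methyluridine in the T loop of cytosolic tRNA, and TRMT2B does so in mitochondrial RNA. TRMT2A (ENSG00000099899, chromosome 22, from 20111875 to 20117392, minus strand) had 59.7 and 57.6 TPM in NC and 65.7 and 65.5 TPM in sh-ANP32B, so that both knockdown libraries lay above NC. Its log2FC of 0.16 (SE 0.050, 95% interval 0.03 to 0.28, limma adjusted p = 0.0489) was just past the threshold. Against the median of all genes tested it was 0.08. It was called in 3 of the 12 alternative settings of the fit, and its log2FC was above 0 in all of them, from 0.06 to 0.19. With median-of-ratios scaling it was 0.06 (limma adjusted p = 0.394), blocking on the replicate number limma gave adjusted p = 0.0793, and leaving out any library gave adjusted p from 0.0929 to 0.186 in limma.

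TRMT2B (ENSG00000188917, chromosome X, from 101009346 to 101052116, minus strand) had 12.8 and 15.8 TPM in NC and 11.8 and 14.4 TPM in sh-ANP32B. The groups overlapped, and its log2FC was -0.12 (95% interval -0.48 to 0.24, limma adjusted p = 0.542). Without NC replicate 2 it was 0.02 and without sh-ANP32B replicate 1 it was 0.01.

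TRMT2A overlaps at its start with RANBP1, a gene of the opposite strand that encodes a binding protein of the Ran GTPase. Their exons share 393 bases. The shared bases lie in the second exon block of TRMT2A, 962 to 1354 bases from its start, and make up part of its 3954 exonic bases. RANBP1 fell, with 302 and 299 TPM in NC and 157 and 163 TPM in sh-ANP32B (log2FC -0.90, limma adjusted p = 1.17e-04). DGCR8, a microRNA processing gene that shares 3 exonic bases with the other end of TRMT2A (where a noncoding gene not used here, ENSG00000243762, shares 1), fell with a log2FC of -0.34 (limma adjusted p = 0.00971). TRMT2A, whose small rise was called in 3 of the 12 alternative settings of the fit, thus lay between neighbours that were both lower. How many reads of the shared exon were given to TRMT2A is not known from TPM.

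**Figure D3:**
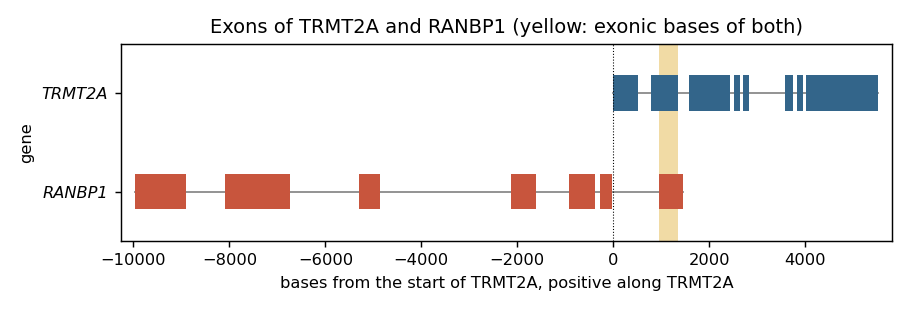
Exon blocks of TRMT2A (blue) and RANBP1 (red) from GENCODE on hg38, placed by distance in bases from the start of TRMT2A. The yellow band marks the 393 bases that are exonic in both genes, on opposite strands.

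Among the other members and the genes of 4 tRNA lists, 129 in all, the genes whose log2(TPM + 1) in the 4 libraries lay nearest to that of TRMT2A, after taking off each gene's NC mean, were TARBP1, ADAT1 and POLR3F. TARBP1, a ribose methyltransferase of tRNA, rose with a log2FC of 0.19 (distance 0.0471). ADAT1, a tRNA deaminase, had 0.14 (limma adjusted p = 0.115), and POLR3F, a subunit of RNA polymerase III, had 0.19 (limma adjusted p = 0.130). With 2 groups of 2 libraries, such nearness mostly restates the size of the difference between the groups.

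The rest of the tRNA pathway was followed through 4 lists. Of 30 tested genes among the other tRNA methyltransferases and partners, 6 were called lower, 3 higher and 21 not called, with a median log2FC of -0.09. The share called lower lay near the 19.7% of all genes tested. The lowest were MRM1 at -0.78 (limma adjusted p = 0.00850), TYW3 at -0.62 (limma adjusted p = 0.00291) and METTL2A at -0.51 (limma adjusted p = 0.0220). MRM1 is known as a methyltransferase of mitochondrial ribosomal RNA rather than tRNA, TYW3 acts in wybutosine synthesis, and METTL2A forms methylcytosine. METTL2A has the near-identical copy METTL2B, so reads of either are uncertain (METTL2B had a log2FC of -0.37, limma adjusted p = 0.00978). The highest were TRMT12 at 0.87 (limma adjusted p = 0.0180), a wybutosine enzyme with 1.34 and 1.09 TPM in NC and 2.74 and 3.35 TPM in sh-ANP32B, DALRD3 at 0.49 (limma adjusted p = 0.0149), a partner of METTL2, and TARBP1.

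Of 41 other tRNA modification enzymes, 20 were called lower (48.8%), 2 higher and 19 not called, with a median log2FC of -0.28. Over all genes tested, 19.7% were called lower and 26.0% higher. PUS1, a pseudouridine synthase, fell from 111 and 108 TPM in NC to 54.4 and 60.2 TPM in sh-ANP32B (log2FC -0.93, limma adjusted p = 3.04e-04). ELP5, a subunit of Elongator, fell by 0.76 on the log2 scale and DUS3L, a dihydrouridine synthase, by 0.70 (limma adjusted p = 2.61e-04 and 8.14e-04). The 2 higher genes were PUS10 at 0.45 and THUMPD1, the tRNA-binding partner of an acetyltransferase, at 0.33 (limma adjusted p = 0.0385 and 0.00576).

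Of 25 tested genes of tRNA processing, 13 were called lower (52.0%), 1 higher and 11 not called, with a median log2FC of -0.28. RPP21 and POP7, protein subunits of nuclear RNase P, had -1.05 and -0.77 (limma adjusted p = 0.0315 and 0.00119), and TSEN15, of the tRNA splicing endonuclease, had -0.77 (limma adjusted p = 0.00126). HSD17B10 was the higher gene, and with median-of-ratios scaling no gene of the list was called higher (0). Of 24 genes of RNA polymerase III and its factors, 9 were called lower (37.5%) and 15 not called, with a median of -0.15. For both lists the shares over all genes tested were again 19.7% lower and 26.0% higher. POLR3G, GTF3C5 and POLR3E fell by 0.74, 0.70 and 0.59 on the log2 scale (limma adjusted p = 0.00410, 2.78e-04 and 0.00203). No list was tested as a set.

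**Figure D4:**
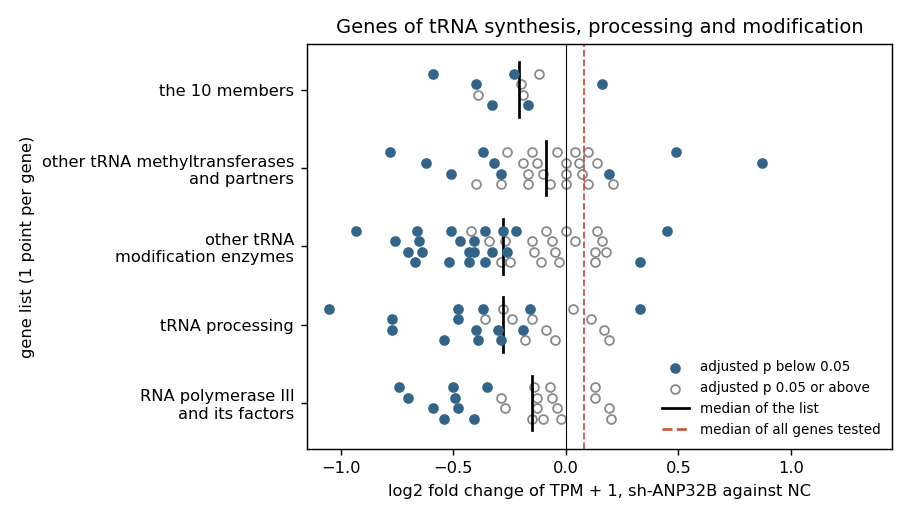
The log2FC of TPM + 1, sh-ANP32B against NC, for the 10 members and for each tested gene of 4 tRNA lists, 1 point per gene. Filled points passed an adjusted p of 0.05, black lines are list medians (-0.21, -0.09, -0.28, -0.28 and -0.15 from top to bottom), and the dashed line is the median of all genes tested (0.08).

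The split of calls over all genes depended on scaling, with 43.1% of calls lower on the TPM as deposited, 54.0% with median-of-ratios scaling and 52.7% with quantile normalization. Quantile normalization moved the median of all genes by -0.12, and relative to the median in each setting METTL1 was at -0.67 as deposited, -0.67 with median-of-ratios scaling and -0.62 with quantile normalization. TRMT2A was at 0.08, 0.07 and 0.22 on the same footing.

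**Figure D5:**
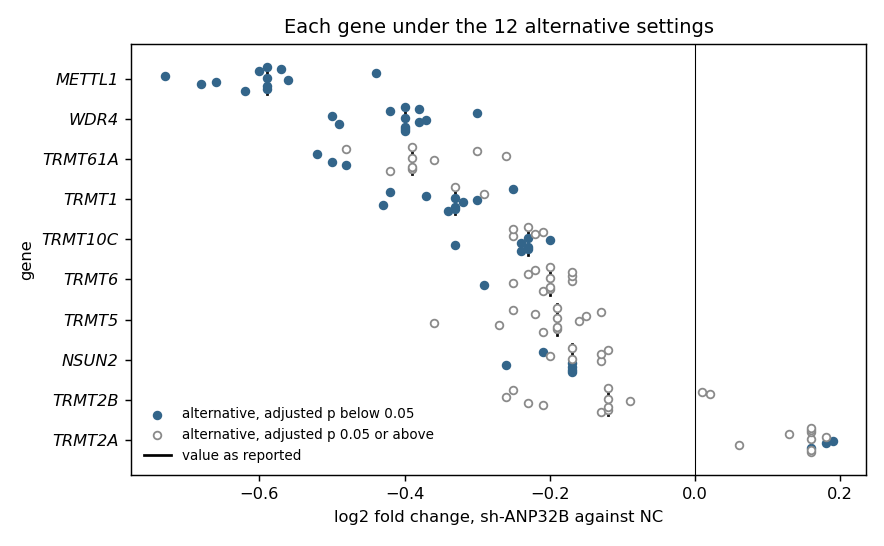
The log2FC of each gene, sh-ANP32B against NC, under the 12 alternative settings of the fit (points, filled where the adjusted p was below 0.05) and as reported (black lines). METTL1 and WDR4 are filled throughout, TRMT2A stays to the right of 0, and TRMT2B crosses it.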

How the data were processed

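MV4-11 RNA was sequenced in 4 libraries, 2 per group, and groups were taken from the sample titles. Per the submitters' processing notes, alignment used HISAT2 (2.0.5) on hg38, and the authors deposited 1 TPM value for each gene in each library. That unit was inferred from the values. The quantification tool, annotation and strand setting are not given in the sources used here. The study's own test needs read counts, so limma (3.58.1, R 4.3.3; lmFit, eBayes with a trend) was run on log2(TPM + 1). Genes needed 1 TPM or more in 2 or more libraries, and the Benjamini-Hochberg adjustment covered all 16937 of them. The procedure was tested on simulated data, with variances drawn from the fitted model itself and few genes changed. That test therefore does not bear on the scaling or on how far the model holds here. Positions and shared exons came from GENCODE 44, which held 17290 of the 18885 identifiers. Symbols came from it too, or from a separate list of gene names for identifiers it lacked. Of the 18885 identifiers, 14961 had a symbol. Members, lists and tests were chosen with earlier results of these data known. Named genes were the members, ANP32B, genes sharing exonic bases with a member in the annotation, partners of TRMT10C, the 3 lowest and 3 highest called genes of each list, and the 3 nearest to TRMT2A. METTL2B was named after its values were seen, as were the marker genes given by symbol. Alternatives changed the pseudocount, filter, scaling, variance trend, call limits, replicate block and libraries. Python 3.11.15 and pandas 2.3.3 made the tables.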

Additional observations from a re-analysis of the deposited data

How the results depend on the processing

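Depth is unknown and groups of 2 leave little to estimate the spread, so calls near the threshold moved. METTL1 and WDR4 were called lower in all 12 alternative settings of the fit, and METTL1 but not WDR4 under either fold limit; the cause of the following moves was not tested. TRMT2B changed sign without NC replicate 2 (0.02) and without sh-ANP32B replicate 1 (0.01), within a range from -0.26 to 0.02 with 1 library left out. The 5 members lower and 1 higher became 2 and 0 with eBayes without a trend, and 1 and 0 under the study limits or with adjusted p and a log2FC past 0.5. No member was higher (0) with a pseudocount of 0.1, no filter or median-of-ratios scaling. With 1 library left out, 3 to 4 members were lower (3 without NC replicate 1, NC replicate 2 or sh-ANP32B replicate 2) and 0 higher. For the other methyltransferases, 3 were lower without a trend, 3 lower and 1 higher under either fold limit, and 3 to 5 lower and 1 to 2 higher with 1 library left out. For the modification enzymes, 1 was higher with median-of-ratios scaling, 9 were lower and 0 higher under either fold limit, and 1 to 2 were higher with 1 library left out. For tRNA processing, 7 were lower and 0 higher without a trend, 0 higher with median-of-ratios scaling, and 4 lower and 0 higher under either fold limit. With 1 library left out, 6 to 12 were lower (6 without NC replicate 1 or sh-ANP32B replicate 2) and 0 to 1 higher. For RNA polymerase III, 5 were lower under either fold limit. Over all genes, 1833 were lower under the study limits and 1712 with adjusted p and the fold limit.

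Same-numbered libraries did not deviate together over all genes tested (correlation -0.02315), and nothing in the labels ties them. Whether they shared a culture or a batch is not known. With the replicate block, 4 members were lower and 0 higher, 1 modification enzyme was higher, and 3102 genes were lower and 4031 higher over all genes. The log2 ratios of METTL1 to WDR4 and of TRMT6 to TRMT61A differed by -0.22 and 0.21 between groups in the paired comparison too (exact p = 0.5, the smallest that 2 pairs allow).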
